A study of Mus musculus with 57 samples.

Results

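The brown and beige thermogenic genes examined here were Ucp1, Cidea, Dio2, Ppargc1a, Ppargc1b, Prdm16, Elovl3, Kcnk3, Otop1 and Zic1. These 10 genes, of the 52853 in the count tables, were taken by gene symbol because they mark brown fat or its beige counterpart in white fat. Their levels in these mice were not a criterion, but earlier results of these data were known when they were chosen.

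The RNA sequencing data came from male mice on a C57BL/6J background that were homozygous for the R707W substitution in Mfn2 (knock-in, KI), and from wild-type (WT) mice. Mfn2 encodes mitofusin-2, a GTPase of the outer mitochondrial membrane that takes part in mitochondrial fusion. From 5 weeks of age the mice were fed a high-fat diet (HFD) with 45% of its energy from fat, or chow, for 6 months. Brown adipose tissue (BAT) was sequenced on HFD (6 WT and 6 KI mice), and inguinal white adipose tissue (WAT) was sequenced on HFD (8 WT and 8 KI) and on chow (7 WT and 6 KI).

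All KI mice descended from 1 founder made by CRISPR-Cas9, and the substitution is in the germline, so every cell type carries it. BAT of chow-fed mice was not analysed here. Total counts were 8042591 to 10522554 per mouse for BAT, 17572752 to 25680411 for inguinal WAT on HFD, where 2 technical libraries per mouse had been combined, and 8668279 to 11720458 for inguinal WAT on chow. A point substitution leaves no deletion to check in counts. Mfn2 itself was at 355 ± 13.0 CPM (counts per 1000000 counts) in WT and 448 ± 71.2 CPM in KI BAT (mean ± SD, n = 6), and the comparison of KI with WT mice was not called for it in BAT (log2 fold change 0.29, edgeR adjusted p = 0.11) or in inguinal WAT on either diet. CPM are scaled by TMM, a correction for unlike RNA composition, on 1 scale for all samples. In 8 of the 41 mice, spread over 5 of the 6 groups, 12 skeletal muscle markers summed to more than 1000 CPM, and in chow-fed KI mouse 4 they summed to 71081 CPM.

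8 of the protein-coding members lie, by the GENCODE annotation of GRCm38, at chr5:30588170-30625271 (Kcnk3, plus strand), chr5:38275972-38304217 (Otop1, plus), chr19:46131897-46135307 (Elovl3, plus), chr4:154316125-154636873 (Prdm16, minus), chr9:91358058-91365810 (Zic1, minus), chr8:83290352-83298452 (Ucp1, plus), chr12:90724552-90738438 (Dio2, minus) and chr5:51454250-51567726 (Ppargc1a, minus).

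Brown adipocytes burn fuel to make heat. The uncoupling protein Ucp1 lets protons leak back across the inner mitochondrial membrane without making ATP, and noradrenaline switches the programme on through beta-adrenergic receptors and cAMP. White depots such as inguinal fat can form beige adipocytes, which turn on much of the same programme in the cold. The members fall into roles: Ucp1 as the heat-producing effector, Dio2 as the deiodinase that activates thyroid hormone inside the cell, Ppargc1a and Ppargc1b as coactivators of mitochondrial genes, Prdm16 as a coregulator of brown fat identity, Zic1 as a transcription factor of the classical brown lineage, Cidea as a lipid droplet protein, Elovl3 as an elongase of very long chain fatty acids, and Kcnk3 and Otop1 as a potassium and a proton channel of the plasma membrane.

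Promoter sequence was read for 3 members that cAMP is known to induce in brown fat. The 250 bases before the RefSeq transcription start are given 5′ to 3′ on the gene's strand for Ucp1 (chr8:83290098-83290347, plus strand), Dio2 (chr12:90739039-90739288, minus strand) and Ppargc1a (chr5:51567726-51567975, minus strand), in build GRCm38.p6. The Dio2 stretch lies inside the noncoding gene Gm26512 on the opposite strand. Capitals mark a cAMP response element (CRE).
Ucp1: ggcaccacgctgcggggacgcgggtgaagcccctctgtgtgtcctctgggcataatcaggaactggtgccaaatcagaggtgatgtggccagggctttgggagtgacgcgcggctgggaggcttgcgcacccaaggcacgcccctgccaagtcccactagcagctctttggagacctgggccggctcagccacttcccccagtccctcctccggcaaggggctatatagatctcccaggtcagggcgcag
Dio2: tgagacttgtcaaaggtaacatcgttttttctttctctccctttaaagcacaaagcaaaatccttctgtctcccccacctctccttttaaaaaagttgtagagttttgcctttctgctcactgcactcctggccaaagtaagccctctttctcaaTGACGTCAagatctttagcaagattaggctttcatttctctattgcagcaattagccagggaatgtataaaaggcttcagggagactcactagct
Ppargc1a: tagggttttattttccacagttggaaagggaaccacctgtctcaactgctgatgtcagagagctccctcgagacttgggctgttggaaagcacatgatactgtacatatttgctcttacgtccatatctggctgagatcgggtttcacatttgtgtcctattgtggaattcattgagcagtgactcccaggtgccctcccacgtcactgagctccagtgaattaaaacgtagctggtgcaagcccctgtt
The RefSeq table held a promoter for 6 of the 10 members (also Prdm16, Otop1 and Zic1), each of 300 bases from 250 before to 50 after the start. Both strands were searched for the CRE TGACGTCA, the oestrogen-related receptor element TCAAGGTCA and the ATF4-type element TGATGNAA, and no match overlapped another. Of all 32851 promoters of this length, 588 (1.79%) held the CRE, 139 (0.423%) the receptor element and 1304 (3.97%) the ATF4-type element. Among the 6 members the only match was the CRE of Dio2, at positions -95 to -88 from its start. It is a match of letters, and binding was not measured.

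In BAT, Ucp1 was among the strongest signals. It stood at 4158 CPM in the lowest WT mouse, 6506 in the median and 7232 in the highest, and its reads made up 0.468% of the raw counts of the WT group. The KI mice ranged from 4691 through 7051 to 8504 CPM, overlapping the WT mice. Per kilobase of gene length, the scale on which genes can be compared, Ucp1 stood at 3763 ± 738 CPM per kb in WT BAT and Cidea at 3281 ± 394 (mean ± SD, n = 6). Both were far above the third gene, Kcnk3, at 118 ± 42.0 CPM per kb. The lowest 2 members were Prdm16 (3.33 ± 0.517) and Zic1 (1.25 ± 0.335). In KI BAT the same scale put Cidea (4226 ± 646) next to Ucp1 (4215 ± 792), a difference within the spread of either gene.

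**Figure D1:**
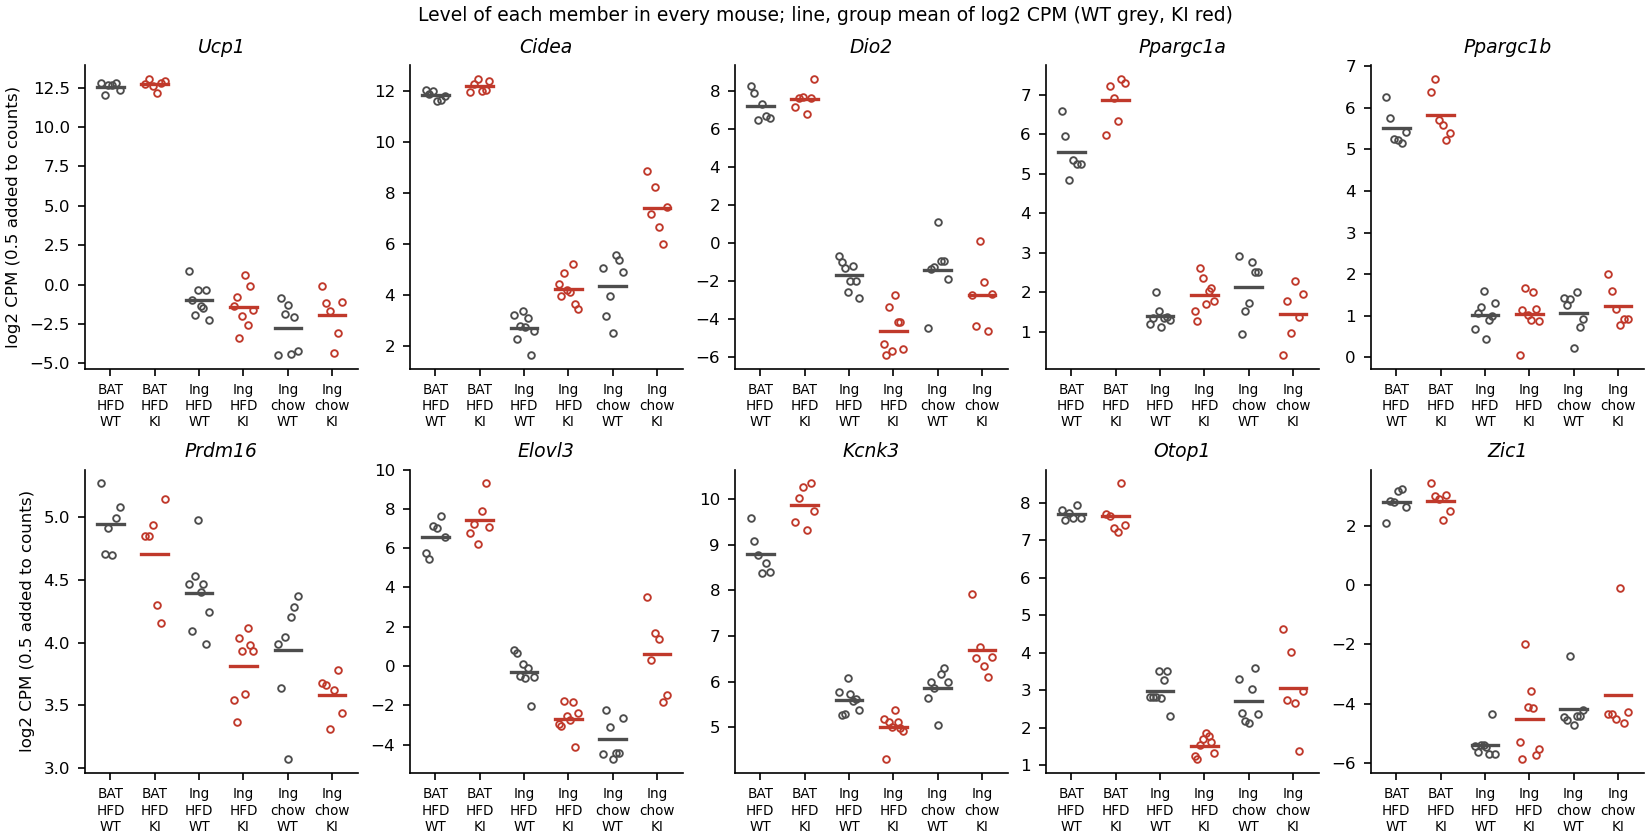
Level of the 10 members in each mouse as log2 CPM with 0.5 added to each count (y axis), in the 6 groups (x axis; circles are mice, lines are means of log2 CPM, WT in grey and KI in red). Every member but Prdm16 had its 12 BAT mice above all 29 inguinal mice, and points at the foot of the Ucp1, Dio2, Elovl3 and Zic1 panels rest on few or no counts, where their height is set by the 0.5.

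Inguinal WAT held almost no Ucp1 mRNA. On HFD each WT mouse had between 5 and 38 Ucp1 counts and each KI mouse between 2 and 45, and on chow the highest mouse had 6 (WT) and 9 (KI). The mean level was 0.614 ± 0.513 CPM in WT mice on HFD (SD, n = 8), 0.511 ± 0.482 in KI mice on HFD (n = 8), 0.187 ± 0.205 in WT mice on chow (n = 7) and 0.341 ± 0.317 in KI mice on chow (n = 6). Set against BAT of the same genotype on HFD these are 0.00998%, 0.00741%, 0.00304% and 0.00494%, so the chow shares mix diet and tissue. The neighbouring inguinal groups in this order overlapped. On HFD, WT BAT held 10003 times the inguinal level by summed counts (exact 95% interval 8340 to 12106), and KI BAT 12561 times (10430 to 15269). A bulk library cannot tell fewer cells of a type from less RNA per cell, here or in any value that follows.

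Of the 10 members 6 (Cidea, Ppargc1a, Ppargc1b, Prdm16, Kcnk3 and Otop1) passed the filter on low counts in each tissue alone, and all 6 were called higher in BAT than in inguinal WAT of HFD-fed mice in both genotypes (adjusted p below 0.01 over all genes in edgeR's quasi-likelihood test). Ucp1, Dio2, Elovl3 and Zic1 passed only through BAT, so the filter set their direction, and their gaps between tissues are given as descriptions. Of all genes tested, 55.9% were called in WT and 59.1% in KI mice, in either direction. The tissues were deposited in separate tables of unlike depth, so tissue and table cannot be told apart. The labels do not tie BAT to inguinal WAT of one mouse, so the samples were treated as independent.

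The size of the gap varied widely between members. Ucp1 (log2 fold change 13.29 in WT, SE 0.46), Cidea (9.05, SE 0.29) and Dio2 (8.94, SE 0.41) stood highest among those with more than 3 counts in the inguinal WT group. Zic1 had 298 counts in WT BAT and 1 in WT inguinal WAT on HFD, a ratio of 1385 with an exact 95% counting interval from 247 to 54867. Kcnk3 was 9.59 times higher in BAT of WT mice (log2 3.26, SE 0.19), so that inguinal WAT kept 10.4% of the BAT level.

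Prdm16 differed least. WT mice had 25.9, 31.0 and 38.6 CPM (lowest, median and highest) in BAT and 15.8, 21.6 and 31.6 CPM in inguinal WAT on HFD, and the tissues overlapped. The log2 fold change of 0.53 (SE 0.15) had an adjusted p of 0.0030 in edgeR's quasi-likelihood test, and it was not called without BAT WT mouse 1 (0.46, adjusted p = 0.014) or without the mice with more than 1000 CPM of muscle markers (0.45, adjusted p = 0.034). It also missed the threshold with at least 10 counts required in every mouse (adjusted p = 0.016) and with the replicate block (adjusted p = 0.016). In KI mice the log2 fold change was 0.90 (SE 0.15, edgeR adjusted p = 6.2e-06). Inguinal WAT held 69.2% of the BAT level of Prdm16 in WT and 53.1% in KI mice on HFD.

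**Figure D2:**
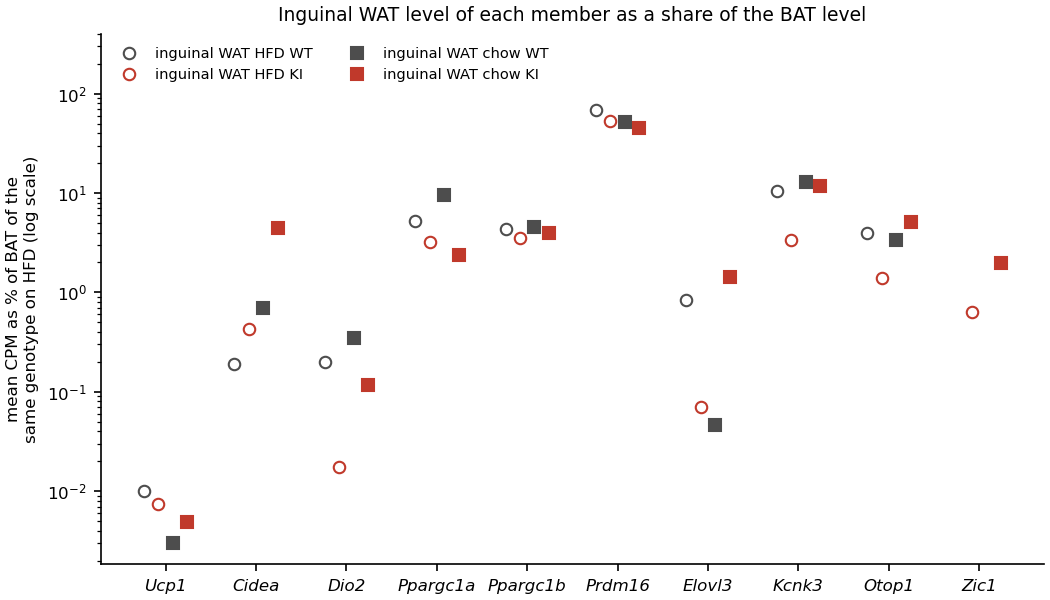
Mean CPM of each member in the 4 inguinal WAT groups (x axis, members; y axis, percent of the BAT mean of the same genotype on HFD, log scale; open circles HFD, filled squares chow, WT grey, KI red). Shares run from 0.00304% for Ucp1 to 69.2% for Prdm16; values that rest on 3 or fewer counts (Zic1 in both WT groups) are left out.

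Other lists fixed for this tissue separated BAT from inguinal WAT in the same way or did not. All 12 genes of oxidative and lipid-handling brown adipocyte metabolism that passed the filter in each tissue alone were higher in BAT of both genotypes, with Fabp3, a fatty acid carrier also made in muscle, the furthest (log2 9.48 in WT, SE 0.90). All 5 white adipocyte markers that passed the filter in each tissue alone were lower in BAT. Hoxc10, a homeobox gene of the posterior body, passed only through inguinal WAT, so the filter set its direction. It had 20.8 ± 6.15 CPM in WT inguinal WAT (SD, n = 8) and no count in the 6 WT BAT samples. Of 6 repressors of the brown programme 5 were lower in BAT in each genotype, with Nrip1 the furthest in WT (-1.89, SE 0.16).
The 8 markers often used for the classical brown lineage did not separate the depots as a list, with 3 higher and 2 lower in WT BAT and a median of -0.03. Mpzl2 led the rises (5.95, SE 0.34) and Epsti1 the falls (-3.30, SE 0.85). Of the 7 beige markers 5 were tested, 2 were higher in BAT and 2 lower. P2rx5 (4.20, SE 0.25) led the rises and Tbx1 (-3.32, SE 1.06) the falls. Tbx1 passed the filter only through inguinal WAT, and its fold rests on at most 5 counts in any BAT mouse and is no bound. Tbx1, Tmem26 and Cited1 had means below 10 CPM in every group.

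The study asks what the Mfn2 substitution does to adipose tissue. In BAT, Ppargc1a and Kcnk3 had the largest log2 fold changes of the members in KI mice, and Ucp1 one within its SE. None of the 10 members was called between KI and WT BAT on HFD, against 1.83% of the 13267 genes tested (edgeR's quasi-likelihood test, adjusted p below 0.01). 3 members (Cidea, Ppargc1a and Kcnk3) had an unadjusted p below 0.05, and DESeq2 called 2 (Ppargc1a and Kcnk3). No member separated the genotypes without overlap, against 3.68% of the genes tested. Ucp1 had a log2 fold change of 0.12 (SE 0.16) with an edgeR adjusted p of 0.68. The median log2 fold change of the members was 0.30, against -0.01 over all genes.

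The coactivator Ppargc1a was at 28.7, 37.9, 38.2, 40.7, 62.5 and 96.4 CPM in the 6 WT mice and at 63.5, 80.4, 122, 149, 157 and 169 CPM in the 6 KI mice. The genotypes overlapped, with 4 of the 6 KI mice above every WT mouse. The log2 fold change was 1.23 (SE 0.32), with an edgeR adjusted p of 0.035 and a 2-sided exact permutation p of 0.0087 (0.024 after Benjamini-Hochberg adjustment over the 30 tests of members in 3 comparisons).
Kcnk3, which sets the resting potential of the brown adipocyte, showed the same picture. The WT mice stood at 332, 336, 391, 437, 543 and 770 CPM and the KI mice at 637, 727, 849, 1048, 1234 and 1301 CPM. Again 4 of the 6 KI mice were above every WT mouse. The log2 fold change was 0.99 (SE 0.23), with an edgeR adjusted p of 0.017 and an exact permutation p of 0.0065 (adjusted 0.019).

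In both genes the highest 2 WT values came from WT mice 1 and 2. These are the 2 WT BAT samples with skeletal muscle markers above 1000 CPM (3410 and 3788 CPM; the KI BAT mice had 78.7 to 1094 CPM). The part of muscle RNA in these levels was not tested. Without WT mouse 1 both genes were called. They were also called without all mice above 1000 CPM (WT mice 1 and 2 and KI mouse 6), a fit added after values had been seen. There Ppargc1a had a log2 fold change of 1.65 (SE 0.25, edgeR adjusted p = 0.0026) and Kcnk3 of 1.38 (SE 0.21, edgeR adjusted p = 0.0017). Leaving out the highest WT values widens the difference by construction, so these fits are no support for a change. A gene on the opposite strand of Kcnk3, Gm9899, lay at 36.4 and 40.6 CPM in WT and KI BAT, and whether the counting used strand is not stated.

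The remaining members moved less in BAT. Cidea stood at 3155, 3685 and 4177 CPM (lowest, median and highest) in WT and at 3973, 4576 and 5689 CPM in KI mice, with 3 KI mice above every WT mouse. Its log2 fold change was 0.32 (SE 0.14, edgeR adjusted p = 0.16), and the exact permutation p was 0.015 (adjusted 0.035). Elovl3 had 43.3 to 199 CPM in WT and 72.7 to 630 CPM in KI mice, and its log2 fold change of 0.98 had an SE of 0.54 (edgeR adjusted p = 0.29).
Dio2 (0.27, SE 0.37), Ppargc1b (0.33, SE 0.28), Prdm16 (-0.25, SE 0.16), Otop1 (-0.04, SE 0.18) and Zic1 (0.01, SE 0.23) were not called (edgeR adjusted p from 0.35 to 0.99). For Otop1 and Zic1 the sign turned under alternatives. The Zic1 mice spanned 4.21 to 9.37 CPM in WT and 4.48 to 10.7 CPM in KI BAT, and the genotypes overlapped.

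Around the members in BAT, 2 of the 14 oxidative and lipid-handling genes rose in KI mice, with Acot2, a mitochondrial acyl-CoA thioesterase, the furthest (log2 2.14, SE 0.37, edgeR adjusted p = 0.0062). Acot2 went from 51.4 ± 12.6 to 233 ± 114 CPM (SD, n = 6). Of the 6 repressors, Tle3, a corepressor that favours white over brown genes, fell by 0.88 on the log2 scale (SE 0.12, edgeR adjusted p = 4.9e-04), from 98.3 ± 13.3 to 55.1 ± 7.91 CPM with no overlap. Retn, which encodes the adipokine resistin, fell by 1.84 (SE 0.31). No gene of the beta-adrenergic and cAMP list (14 tested), of the transcription factor list (15 tested), of the thyroid hormone list (3 tested) or of the secreted factors (7 tested) was called by edgeR, and an unadjusted p below 0.05 was found for 5, 4, 1 and 4 of them. Of the secreted factors Fgf21 had the largest log2 fold change, 4.48 (SE 1.07, edgeR adjusted p = 0.033), against a median of 0.36 for the 7.
2 of the 6 fibroblast and preadipocyte markers also fell, Pi16 the most (-1.62, SE 0.26). The 6 summed to 332 to 774 CPM in WT and 213 to 328 CPM in KI BAT with no overlap, and their part in the member values was not tested. None of the markers of skeletal muscle, macrophages, lymphocytes, endothelium, smooth muscle or Schwann cells was called by edgeR between KI and WT mice in BAT or in inguinal WAT on either diet, and no epithelial marker passed the filter. On chow all 5 muscle markers tested had an unadjusted p below 0.05.

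In inguinal WAT on HFD the members split. The filter on low counts left 6 of the 10, of which 1 (Cidea) was called higher and 3 (Otop1, Prdm16 and Kcnk3) lower in KI mice, against 11.5% of the 16471 genes tested. For 2 of these 6, Cidea and Otop1, the genotypes did not overlap, against 4.52% of the genes tested. The median log2 fold change of the 6 was -0.26, against 0.01 over all genes.

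Cidea was at 3.10 CPM in the lowest, 6.68 in the median and 10.4 in the highest WT mouse and at 10.7, 17.7 and 36.7 CPM in KI mice. All 8 KI mice lay above all 8 WT mice. The log2 fold change was 1.55 (SE 0.27), 2.93-fold, with an edgeR adjusted p of 5.4e-04, and it was called with any 1 mouse left out (1.36 to 1.65). The exact permutation p of 0.00016 is the smallest that 8 against 8 mice allow. The KI level was still 0.427% of KI BAT.

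Otop1 went the other way, from 4.93, 7.12 and 11.5 CPM (lowest, median and highest) in WT to 2.23, 2.95 and 3.63 CPM in KI mice. Every KI mouse was below every WT mouse. It fell by 1.49 on the log2 scale (SE 0.17, edgeR adjusted p = 5.8e-06), which is 2.81-fold lower, and it too was called with any 1 mouse left out. Its exact permutation p was also at the smallest value possible (0.0023 adjusted over the 30 tests, as for Cidea).
Prdm16 stood at 15.8, 21.6 and 31.6 CPM in WT and at 10.3, 15.3 and 17.3 CPM in KI mice, with 6 of 8 KI mice below every WT mouse. It fell by 0.59 (SE 0.13, edgeR adjusted p = 0.0040), and without the mice with more than 1000 CPM of muscle markers it had -0.63 with an adjusted p of 0.017. Kcnk3 stood at 38.3, 48.3 and 67.7 CPM in WT and at 19.7, 33.3 and 41.7 CPM in KI mice, with 7 of 8 KI mice below every WT mouse. It fell by 0.58 (SE 0.13, edgeR adjusted p = 0.0040), and only the fit without WT mouse 1 put it at the threshold (adjusted p = 0.010).

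Ppargc1a was at 2.15 to 4.03 CPM in WT and 2.40 to 6.12 CPM in KI mice (log2 fold change 0.56, SE 0.19, edgeR adjusted p = 0.037). Ppargc1b had 2.07 ± 0.519 and 2.15 ± 0.679 CPM (SD, n = 8) and a log2 fold change of 0.07 (SE 0.21, edgeR adjusted p = 0.87).

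The 4 members below the filter rest on few reads, and they are given by counts. Dio2 had 62 counts over the 8 WT mice (3 to 13 each) and 8 over the 8 KI mice (0 to 4 each, with 4 mice at 0), a ratio of 0.120 with an exact 95% counting interval from 0.0497 to 0.252. All but 1 of the KI mice were below every WT mouse. Elovl3 had 173 counts in WT (7 to 38 each) and 32 in KI mice (1 to 7 each), a ratio of 0.172 (0.114 to 0.252), with 6 of 8 KI mice below every WT mouse. Exact permutation tests of log2 CPM gave p = 0.00031 for Dio2 and 0.00047 for Elovl3, both 0.0027 after adjustment over the 30 tests. Without the filter edgeR called both (adjusted p = 0.0025 and 8.9e-05).
Ucp1 had 116 and 111 counts, a KI to WT ratio of 0.891 (0.681 to 1.17), with an exact permutation p of 0.47. Zic1 had 1 count in WT and 10 in KI mice, a ratio of 9.32 with an interval from 1.33 to 404. Of the 10 counts 6 came from KI mouse 3, whose skeletal muscle markers summed to 4717 CPM, and the part of muscle RNA in them was not tested.

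**Figure D3:**
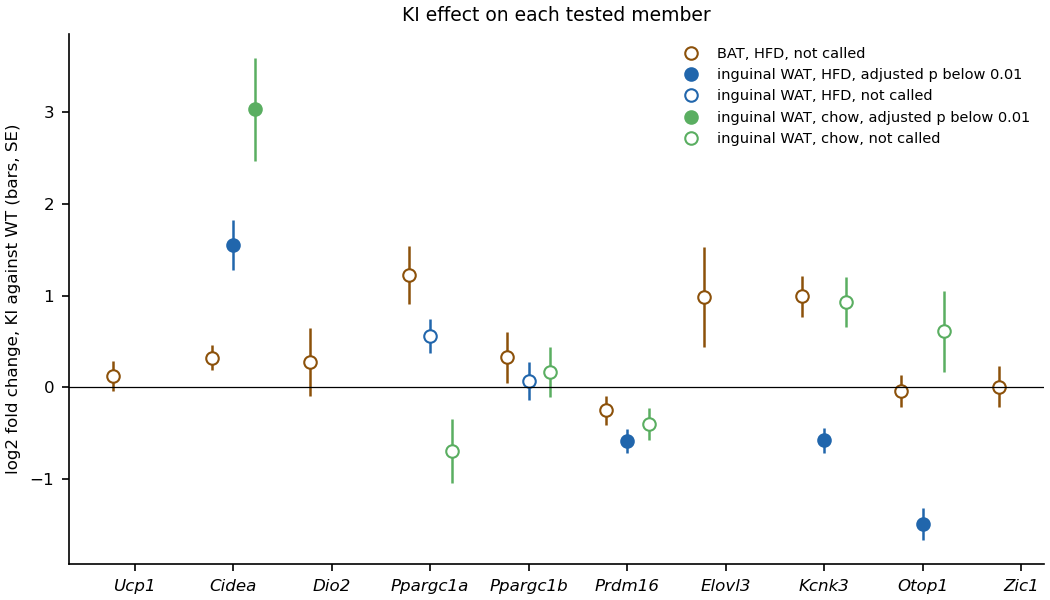
Log2 fold change of KI against WT mice for each tested member (x axis, members; y axis, log2 fold change; bars, SE), in BAT on HFD (brown), inguinal WAT on HFD (blue) and inguinal WAT on chow (green), with filled points for an adjusted p below 0.01. Cidea is the only member called higher in either inguinal comparison, and Otop1 at -1.49 is the largest called fall.

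The same samples showed a mixed picture for the wider programme. Of the 12 tested oxidative and lipid-handling genes 4 rose and 2 fell in KI mice, from Acot2 (log2 2.16, SE 0.14, edgeR adjusted p = 6.6e-09) to Pank1, a kinase that starts coenzyme A synthesis (-0.74, SE 0.14). Of 14 transcription factors and coactivators, 1 rose (Thra, a thyroid hormone receptor, 0.53, SE 0.10) and 2 fell, Esrrg, an orphan nuclear receptor, the most (-1.06, SE 0.18). Of 7 secreted factors 2 rose, Vegfa the most (0.89, SE 0.12). None of the 6 repressors or of the 3 tested thyroid hormone and bile acid genes was called by edgeR, and an unadjusted p below 0.05 was found for 3 and 1 of them.
Of the 4 beige markers tested only Slc36a2, an amino acid transporter, was called. It fell (-1.66, SE 0.12, edgeR adjusted p = 1.7e-08), from 204 ± 36.1 to 64.5 ± 10.2 CPM (SD, n = 8). P2rx5 (-0.29, SE 0.24), Klhl13 (-0.27, SE 0.12) and Tbx1 (0.70, SE 0.78) were not called. The 7 beige markers summed to 193 to 298 CPM in WT and 77.9 to 111 CPM in KI mice, and Slc36a2 makes up most of that sum. Among classical brown markers 3 of 8 rose, Hspb7, a small heat shock protein also found in muscle, the most (1.92, SE 0.29). In KI mice on HFD Hspb7 was itself lower in BAT than in inguinal WAT (-4.18, SE 0.52). Its KI effect was -1.93 (SE 0.63) in BAT and -1.81 (SE 0.67) in inguinal WAT on chow, neither called. Of white markers, 1 of the 8 tested rose, Agt, which encodes angiotensinogen (2.95, SE 0.22), and 2 fell, Retn the most (-1.05, SE 0.14). The general adipocyte markers summed to 24427 to 38994 CPM in WT and 24850 to 35257 CPM in KI mice and overlapped, with 2 of 7 called higher (Lipe, 0.54, SE 0.11, the most) and 1 lower (Adipoq, -0.85, SE 0.10). 2 of 6 fibroblast markers fell, Lum the most (-1.39, SE 0.20), and their part in the member values was not tested.

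On chow, Cidea was again higher in KI mice. The filter again left 6 of the 10, of which only Cidea was called, against 3.27% of the 14629 genes tested. Cidea was also the only one of the 6 whose genotypes did not overlap, against 4.22% of the genes tested. The median log2 fold change of the 6 was 0.39, against 0.00 over all genes.
The 7 WT mice ranged from 5.57 through 29.3 to 46.6 CPM of Cidea and the 6 KI mice from 63.9 through 161 to 463 CPM. The log2 fold change was 3.03 (SE 0.56), 8.17-fold, with an edgeR adjusted p of 0.0056 and an exact permutation p at the smallest value that 7 against 6 mice allow (5.8e-04, adjusted 0.0027). The mean KI level was 4.43% of KI BAT on HFD, against 0.702% for WT, so diet as well as tissue differs in these shares.
The call is near its threshold. It held in 4 of the 13 fits that leave out 1 mouse (without WT mouse 4 or 5, or KI mouse 4 or 5) and missed in the other 9, with an adjusted p of at most 0.015 and a log2 fold change of 2.63 to 3.23. Without KI mouse 4, whose muscle markers summed to 71081 CPM, it was 3.17 (SE 0.55, edgeR adjusted p = 0.0046).

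Elovl3 fell below the filter on chow, yet its mice separated. The 7 WT mice had 4 counts in all (0 to 2 each, 4 mice at 0) and the 6 KI mice 195 (3 to 115 each), a ratio of 60.5 with an exact 95% counting interval from 23.3 to 224. The exact permutation p was 5.8e-04 (adjusted 0.0027), and without the filter edgeR called it (adjusted p = 0.0074). KI mouse 1 held 115 of the 195 counts. It was also the mouse with the highest Cidea, Kcnk3 and Otop1.
Kcnk3 stood at 33.1, 63.4 and 78.6 CPM (lowest, median and highest) in WT and at 68.1, 92.4 and 243 CPM in KI mice, with 5 of 6 KI mice above every WT mouse. Its log2 fold change of 0.93 (SE 0.28) had an edgeR adjusted p of 0.052, and the exact permutation p was 0.0035 (adjusted 0.012). DESeq2 called it.
The other members were not called. Ppargc1a had a log2 fold change of -0.69 (SE 0.35), Prdm16 of -0.41 (SE 0.17), Otop1 of 0.61 (SE 0.44) and Ppargc1b of 0.17 (SE 0.27), with edgeR adjusted p-values from 0.17 to 0.76. Dio2 had 49 counts in WT and 16 in KI mice, Ucp1 16 and 21, and Zic1 2 and 9. All 9 Zic1 counts of KI mice came from mouse 4, the mouse with the most muscle RNA. The part of muscle RNA in these counts was not tested.

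Of the 12 oxidative and lipid-handling genes tested on chow 5 rose and none fell in KI mice, with a median of 1.45. Cox8b, a cytochrome c oxidase subunit, rose most (2.42, SE 0.37, edgeR adjusted p = 0.0014), from 36.8 ± 15.4 CPM in WT (SD, n = 7) to 197 ± 104 CPM in KI mice (n = 6). Mpzl2, a cell adhesion molecule, was the only called classical brown marker (2.35, SE 0.48), and Nrg4, a growth factor that brown fat secretes, the only called secreted factor (1.17, SE 0.21). Nrip1, a nuclear receptor corepressor, fell (-0.80, SE 0.16) as the only called repressor. No beige marker (4 tested), transcription factor (14 tested) or gene of the beta-adrenergic list (14 tested) was called by edgeR, and 3, 3 and 2 of them had an unadjusted p below 0.05.
The white markers summed to 3023 to 7059 CPM in WT and 1324 to 3317 CPM in KI mice with overlap, and Retn was the only one called (-1.22, SE 0.24). The fibroblast markers summed to 1683 to 3383 CPM in WT and 1057 to 1617 CPM in KI mice with no overlap, with Dpt the only called one (-1.28, SE 0.27). The part of these shifts in the Cidea level was not tested.

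The KI effect on the members was not the same in BAT and inguinal WAT. Of the 6 members that passed the filter in each tissue alone, the interaction was called for Kcnk3 and Otop1, against 2.82% of 17214 genes tested. The difference of log2 fold changes, BAT minus inguinal WAT, was 1.62 for Kcnk3 (SE 0.26, edgeR adjusted p = 2.2e-04). It was 1.49 for Otop1 (SE 0.26, adjusted p = 4.0e-04). Kcnk3 and Otop1 were called with any 1 mouse left out. Ucp1, Dio2, Elovl3 and Zic1 were below the filter in inguinal WAT alone and entered this fit only through BAT. Their differences are given as descriptions. Elovl3 was called in 6 of those 28 fits, and without the mice with much muscle RNA it had 2.99 (SE 1.01, adjusted p = 0.13). Cidea (-1.19, SE 0.32) and Dio2 (3.17, SE 0.86) had edgeR adjusted p-values of 0.019 and 0.022, and DESeq2 called both. Without the mice with much muscle RNA edgeR called Dio2 (4.27, SE 0.74, adjusted p = 0.0015). Ucp1 had a difference of 0.35 with an SE of 0.54.

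Between the diets, Cidea was lower on HFD in both genotypes. In WT mice 2 of the 9 members tested were called, a share near that of all genes, which says nothing particular about the members. The diets came as separate tables of unlike depth, so diet and table cannot be told apart. Ucp1, Dio2 and Elovl3 passed the filter in the fit of both diets but in neither diet alone. The filter bears on their direction, so their diet differences, the calls of Elovl3 included, are given as descriptions. In WT mice Cidea was lower on HFD than on chow (log2 fold change -1.91, SE 0.43, edgeR adjusted p = 7.7e-04), against 28.3% of the 17400 genes tested. Elovl3 had 4.00 (SE 0.84). Its WT totals were 173 counts on HFD and 4 on chow, a ratio of 17.9 after scaling (exact 95% counting interval 6.85 to 66.3). In KI mice Cidea (-3.37, SE 0.44), Kcnk3 (-1.80, SE 0.22) and Otop1 (-1.87, SE 0.33) were lower on HFD, against 30.7% of genes called in either direction. With so large a share among all genes, these calls are not read as a result about the members. Elovl3 had -4.27 (SE 0.63). The median of the 9, Ucp1, Dio2 and Elovl3 included, was -0.08 in WT and -1.80 in KI mice, against 0.01 over all genes in each.
Ppargc1a missed the threshold in WT mice, with a log2 fold change of -0.87 (SE 0.27, edgeR adjusted p = 0.0101), and DESeq2 called it.

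Of the 6 members that passed the filter on each diet alone, the KI effect itself differed between the diets for Kcnk3 and Otop1, against 0.845% of genes tested. Kcnk3 (HFD minus chow, -1.48, SE 0.30, edgeR adjusted p = 0.0072) and Otop1 (-2.08, SE 0.45, adjusted p = 0.0097) were called in 14 and 5 of the 29 fits with 1 mouse left out. Neither was called without the mice with much muscle RNA (adjusted p = 0.016 and 0.027). Elovl3 had the widest difference (-8.27, SE 1.03) but passed the filter on neither diet alone. Its counts lay mostly in WT mice on HFD (173) and KI mice on chow (195), against 32 and 4 in the other groups. The filter bears on its direction, so it is given as a description. Its size depends on the value given to mice at 0 and is no bound. Cidea was higher in KI mice on both diets, and the difference between its effects was not called (-1.45, SE 0.60, adjusted p = 0.20).

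Mice of one group were compared to see whether the members vary together. Ucp1 was set against each of the other 9 members in each of the 6 groups (54 relations, exact permutation test of Pearson's r and Spearman's rho). None passed a Benjamini-Hochberg adjusted p of 0.05, the lowest being 0.59 for r and 0.15 for rho, and 3 had an unadjusted p below 0.05: Elovl3 in KI mice on HFD (r = -0.75, rho = -0.83, n = 8, exact p = 0.031 and 0.015), Cidea in WT mice on chow (r = -0.78, rho = -0.79, n = 7, exact p = 0.048 and 0.048) and Ppargc1a in WT mice on chow (r = -0.88, rho = -0.96, n = 7, exact p = 0.022 and 0.0028). Without the 2 mice farthest from the median Ucp1 these r were -0.96, -0.68 and -0.77. The Ucp1 values behind them are counts of 0 to 45.

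Cidea was then set against Elovl3, Kcnk3, Otop1 and Ppargc1a in the 4 inguinal groups (16 relations), a set chosen after its values had been seen, so that its p-values describe and do not test. In KI mice on chow the 6 mice stood in the same order for Cidea, Kcnk3 and Otop1. For Kcnk3 r was 0.89 and rho 1 (n = 6, exact p = 0.0014 and 0.0028, adjusted 0.011 and 0.022), and r was 0.99 without the 2 mice farthest from the median Cidea. For Otop1 r was 0.98 and rho 1 (n = 6, exact p = 0.0014 and 0.0028, adjusted 0.011 and 0.022), and r was 0.95 without those 2 mice. No other of the 16 passed an adjusted p of 0.05. On HFD, where KI mice had more Cidea and less Otop1 than WT mice, r between the 2 genes was 0.34 within the KI mice (rho 0.29, n = 8, exact p = 0.41 and 0.50) and -0.02 within the WT mice (rho 0.33, n = 8, exact p = 0.97 and 0.43).

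**Figure D4:**
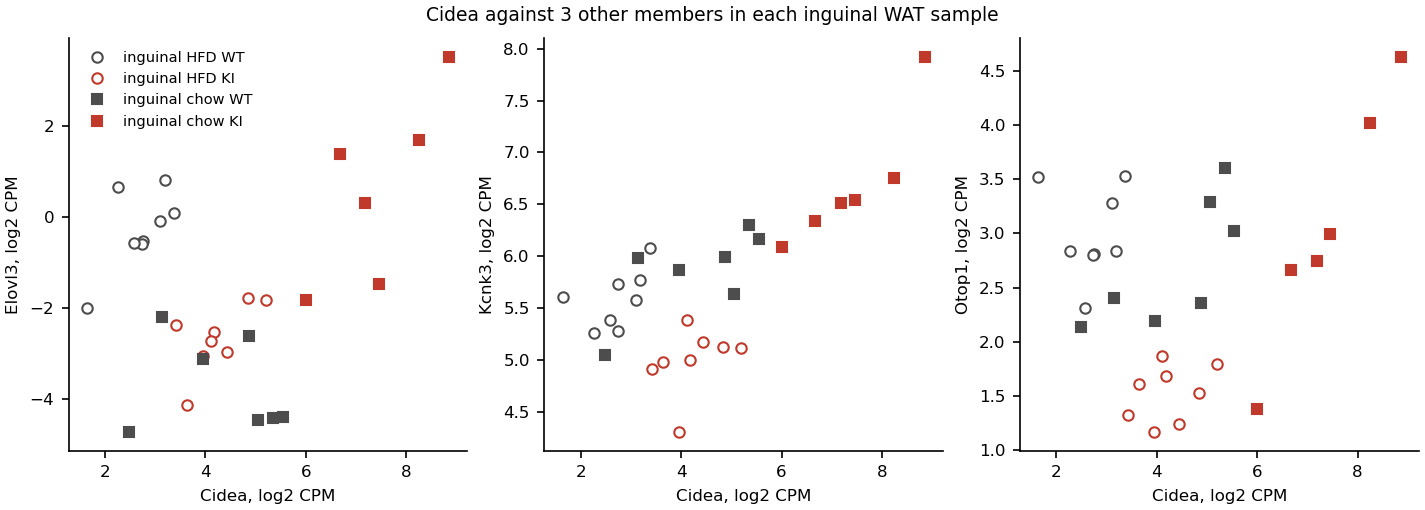
Cidea (x axis, log2 CPM) against Elovl3, Kcnk3 and Otop1 (y axes, log2 CPM) in the 29 inguinal WAT samples (circles HFD, squares chow, WT grey, KI red). The 6 KI mice on chow line up for Kcnk3 (r = 0.89) and Otop1 (r = 0.98), while KI mice on HFD sit at more Cidea but less Otop1 than the WT mice on HFD.

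The genes most like Ucp1 across mice, with each group centred, were Opa1 (r = 0.94), Fbh1, Olig1, Mrps22 and Hagh (0.91) over the 12 BAT mice, out of 14137 genes. Opa1 encodes the GTPase of inner membrane fusion. Over the 29 inguinal mice they were Atp6v1b2 (0.75), Galns, Matk, Pak1ip1 and Spag4 (0.68), out of 14820 genes. These are descriptions over mice that share groups and depth, picked as the highest of many. No member was among the 5 in either tissue. For Cidea, chosen after its values were seen, they were Acaca (0.88), Acadvl (0.88), Ces1f, Map3k15 and 1700037H04Rik (0.85) over the 29 inguinal mice, the first 2 being enzymes that make malonyl-CoA and oxidise long chain fatty acids.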

How the data were processed

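RNA was sequenced from BAT and inguinal WAT, 41 samples in all, 1 per mouse and tissue. Per the labels and the study's methods, the authors used cutadapt for trimming, STAR for alignment to GRCm38, SAMtools for sorting and featureCounts for gene counts. Versions, annotation release and strand setting are not given in the sources used here. The deposited values are raw counts in 3 tables, with no column left unused. Of 54838 entries, 1884 without length or count and repeats of 99 shared symbols (200 entries) were left out, leaving 52853 genes.

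Counts were fitted with edgeR 4.0.16 in R 4.3.3 (robust quasi-likelihood test, TMM, filterByExpr, library totals over all genes), with DESeq2 1.42.0 as an alternative. Each KI against WT comparison was fitted on its own. Tissue and diet comparisons and their interactions with genotype came from 1 fit of 4 groups each, with the groups' spread shared. Calls require a Benjamini-Hochberg p below 0.01 over every gene tested, and a fold change that is not called is given as a value. "Rose" and "fell" are used of called genes. The SE of a log2 fold change is its size divided by the square root of the F statistic. CPM are on 1 TMM scale over all 41 samples. Log2 CPM adds 0.5 to each count. Single-mouse values were compared by 2-sided exact permutation tests that enumerate every split of the mice, and intervals are exact at 95% and cover counting error only. Python 3.11.15 with scipy 1.17.1 was used. The study housed littermates of mixed genotype together, and which samples share a litter is not given, so p-values treat the mice as independent.

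The members, the gene lists (148 genes in 19 lists, the members included), the alternatives and the rule for named genes were chosen with earlier results of these data known. The rule names all 10 members in each comparison, in each list the called gene with the largest rise and the largest fall, and the 5 genes most correlated with Ucp1 in each tissue. The relations of Cidea, the use of library totals over the genes tested and the fits without 8 mice with much muscle RNA were added after values had been seen. Further alternatives were RLE size factors, omission of the filter, a minimum of 10 counts per mouse, removal of genes on the mitochondrial genome, 1 fit of all 6 groups, an adjusted p below 0.05, a replicate block, a prior count of 2 and each mouse left out in turn. The fitting code was tested on simulated data. Gene positions follow GENCODE and promoters RefSeq, both on GRCm38. Sequence of the other 4 members was not used here. Some results of the lists are not reported here.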

Additional observations from a re-analysis of the deposited data

Results flagged for a closer look

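7 of the 60 combinations of a member and a group had a mouse that stood apart from the rest of its group by Dixon's criterion, where chance gives about 1 in 20. Ppargc1a was highest in WT mouse 3 of inguinal WAT on HFD (4.03 CPM). Kcnk3 was lowest in KI mouse 2 of inguinal WAT on HFD (19.7 CPM), whose lymphocyte markers summed to 697 CPM, and highest in KI mouse 1 of inguinal WAT on chow (243 CPM). Otop1 was highest in KI mouse 5 of BAT (368 CPM). Zic1 was highest in WT mouse 7 of inguinal WAT on HFD (0.0330 CPM, 1 count), in WT mouse 3 on chow (0.153 CPM, 2 counts) and in KI mouse 4 on chow (0.882 CPM, 9 counts). In these Zic1 groups every other mouse had no count, so the rate of 1 in 20 does not apply to them.

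The KI effect differed between BAT and inguinal WAT on HFD for Elovl3 (3.51 on the log2 scale), Kcnk3 (1.62) and Otop1 (1.49), by the interaction term, where Elovl3 entered only through BAT. It differed between HFD and chow in inguinal WAT for Elovl3 (-8.27), Kcnk3 (-1.48) and Otop1 (-2.08), by the same kind of test. Elovl3 had passed the filter on neither diet alone, so its difference is a description. Otop1 and Kcnk3 were lower in KI mice on HFD and had positive log2 fold changes in KI mice on chow (0.61 and 0.93, neither called), and Elovl3 had fewer counts in KI mice on HFD and more on chow.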

How the results depend on the processing

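The number of members called in BAT was 0, and it was 2 (Ppargc1a and Kcnk3) with DESeq2, with 1 fit of all 6 groups, at an adjusted p below 0.05 and without the mice with much muscle RNA, and 0 to 2 with 1 mouse left out. In inguinal WAT on chow the 1 call became 2 with DESeq2 and 3 with 1 fit of all 6 groups, and was 0 to 1 with 1 mouse left out. On HFD the 4 calls ranged from 3 to 5 with 1 mouse left out. Requiring at least 10 counts in every mouse removes the members that are scarce in inguinal WAT from the test, and left 5 calls between the tissues in WT and 6 in KI mice. The range with 1 mouse left out was 9 to 10 in WT and 10 in each KI fit. Here and with the replicate block below, calls between the tissues also count Ucp1, Dio2, Elovl3 and Zic1. The filter set the direction of these members, so their calls are no test. Calls between the diets and of the tissue and diet differences also count members that passed the filter only in the joint fit. Those calls are no test either. The tissue difference of the KI effect had 3 calls, 5 with DESeq2 and at an adjusted p below 0.05, 1 with 1 fit of all 6 groups, and 2 to 3 with 1 mouse left out. In WT mice the 2 calls between diets became 1 with at least 10 counts in every mouse, 1 with 1 fit of all 6 groups and 4 at an adjusted p below 0.05, with 2 to 3 when 1 mouse was left out, and in KI mice there were 4 in each such fit. The diet difference of the KI effect had 3 calls, 1 without the low-count filter, 1 without the mice with much muscle RNA, and 1 to 3 with 1 mouse left out. Where the alternative's construction does not show it, the cause was not tested. Sign changes were limited to log2 values that were not called. Otop1 in BAT turned positive with 1 fit of all 6 groups (0.0054) and without the mice with much muscle RNA (0.022), where Zic1 in BAT (-0.042) and Ppargc1b on HFD (-0.072) turned negative and Ppargc1b between diets in WT mice positive (0.0035). Zic1 in BAT was -0.0066 with the replicate block. With 1 mouse left out, values of both signs were given by Otop1 (-0.25 to 0.050) and Zic1 (-0.14 to 0.12) in BAT, by Ppargc1b on HFD (-0.034 to 0.17), on chow (-0.035 to 0.25), between diets in WT (-0.17 to 0.032) and KI mice (-0.26 to 0.063) and for the diet difference (-0.19 to 0.11), and by the tissue difference of Ucp1 (-0.062 to 0.85). Over all genes, the 243 calls in BAT (180 higher, 63 lower) became 715 with DESeq2 (446, 269) and 835 with 1 fit of all 6 groups, and 263 without the mice with much muscle RNA (168, 95). The 1886 on HFD became 1242 with 1 fit of all 6 groups and 1004 without those mice, and the 479 on chow 1121 with DESeq2 and 1088 with 1 fit. The 485 of the tissue difference became 844 with DESeq2 and 204 without those mice, and the 147 of the diet difference 414 and 40. With 1 mouse left out the calls were 134 to 313 in BAT, 285 to 509 on chow and 69 to 269 for the diet difference. Correlations of the deviations of same-numbered mice ran from -0.391 to 0.687. They were above 0.1 in 3 of 6 pairs of WT and KI mice in BAT, 1 of 8 in inguinal WAT on HFD and 2 of 6 on chow, and in 4 of 6 pairs of BAT and inguinal WAT of WT mice, so the numbers were not taken to pair the mice. With the replicate block the members called were 0 on chow, 0 for the diet difference and 9 between the tissues in WT mice, and the calls over all genes were 363, 1545 and 119 for KI against WT mice in BAT, on HFD and on chow, 3544 between diets in KI mice, 180 for the tissue difference and 12 for the diet difference. Depth limits Ucp1, Dio2, Elovl3 and Zic1 in inguinal WAT, where a group's total is often under 100 counts.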
